A study of Homo sapiens with 8 samples.

Results

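The zinc finger genes of chromosome bands 19q13.12 and 19q13.31 form 2 runs of neighbouring genes on the long arm of human chromosome 19. The members were the 49 zinc finger symbols of these bands, 29 in 19q13.12 and 20 in 19q13.31, each represented by the transcript cluster (a group of array probes that report 1 transcript) with the highest mean over the arrays. Of these, 47 had a transcript cluster with that symbol, 27 in 19q13.12 and 20 in 19q13.31, among 14884 gene symbols on the array. ZNF260 and ZNF781 had none under their own symbol and are named only. The members were chosen by band, and the bands were selected on results of these data: ZNF527 had stood far above the control shRNA array, ZNF585B higher with wild-type than with mutant TET1, and a second transcript cluster of ZNF224 above the vector. Those 3 values are therefore given as a description, and counts over the members carry no test.

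Expression was measured in HEK293T, a line derived from human embryonic kidney and expressing the large T antigen of SV40, on 8 Affymetrix arrays with 1 array for each condition. The plasmid arm held cells given TET1-FL, mTET1-FL, TET1-CD or mTET1-CD expression plasmid, or the empty vector, 3 days before fluorescence sorting, and the shRNA arm held 2 clones with different lentiviral shRNAs against TET1 and 1 control shRNA clone. TET1 oxidises 5-methylcytosine in DNA, and the plasmids prefixed m carry a catalytically mutant protein; the labels do not spell out FL and CD. Every TET1 shRNA or control array is thus 1 clone and every plasmid array 1 transfection, and no label names separate cultures. The p-values of all comparisons share the same estimate of spread for a gene. Its own part of that estimate has 2 sources: the gap between the TET1 shRNA clones, and the gap between FL and CD in wild-type minus mutant. The p-values therefore do not measure how far repeats of a condition would vary.

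Most genes of these bands encode KRAB zinc finger proteins, a family that expanded by tandem duplication. Their zinc fingers bind DNA, often in transposable elements, and the KRAB domain recruits TRIM28, which brings the histone methyltransferase SETDB1 to silence the bound site. The family is known to be regulated in part by itself: ZNF274 and TRIM28 mark the 3′ ends of many zinc finger genes with repressive histone methylation, and many of the genes start in CpG-rich promoters that can become methylated.

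Values are log2 signals after the authors' normalization, and array medians lay between 5.47 and 5.55. A signal depends on the probes, so the level of 1 gene is not set against that of another. Of the 47 measured members, 37 lay above an array's own median on at least 2 arrays and entered the tests, 23 from 19q13.12 and 14 from 19q13.31. The 10 that did not were ZFP82, ZNF793, ZNF540, ZNF573, ZNF404, ZNF221, ZNF222, ZNF233, ZNF285 and ZNF229, and their differences are given without a test. TET1 itself had 8.62 on the shTET1#1 array and 9.14 on the shTET1#2 array, against 9.29 on the control shRNA array, a difference of -0.41 ± 0.27 (SE, limma adjusted p = 0.782). The array labelled shTET1#2 was therefore close to the control in TET1, which bears on each direction drawn from it. The TET1 signals were 12.22 for TET1-FL, 12.47 for mTET1-FL, 10.42 for TET1-CD and 11.05 for mTET1-CD, against 9.51 for the vector. Of 10 genes listed as typical of HEK293 cells 6 had a named cluster, all above the array median on 8 arrays. Of 10 markers of other cell types 3 had one: ALB and PECAM1 lay above the median on 0 arrays and GFAP on 8.

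Promoter sequence is shown because many of the members hold the same short word there, in matches that look alike beyond it. RefSeq promoter windows of 300 bases (assembly GRCh38.p14, mostly upstream of a gene's start and running a little past it) were found for 42 of the 49 members, 62 windows in all. Among all words of 8 bases, read on both strands, TTCCCAGA was the one whose share of the members' windows exceeded its share of all windows by most. It was thus chosen on these promoters, and its frequency is a description with no test. It was in 50% of the members' windows, 78.9% of the 19 from 19q13.31 and 37.2% of the 43 from 19q13.12, against 6.53% of 551 windows of zinc finger genes elsewhere and 2.75% of all 35116 windows. By gene, 28 of the 42 members held it in a window, 14 in each band, and ZNF527 and ZNF585B did not. The matches below belong to members whose signals are described next. Capitals mark the word, and each line reads 5′ to 3′ on the strand given:
ZNF461 and ZNF567 (chr19:36666848-36666875, minus strand): cggactgcatTTCCCAGAggacactgct
ZNF850 (chr19:36772870-36772897, minus strand): tggactacatTTCCCAGAggatcccgca
ZNF345 and ZNF790 (chr19:36850787-36850814, plus strand): tggactacacTTCCCAGAagcctctagg
ZNF829 (chr19:36916078-36916105, minus strand): tggactacatTTCCCAGAgggcctggtg
ZNF420 (chr19:37078337-37078364, plus strand): tggactacatTTCCCAGAggcacggcgt
ZNF230 (chr19:44002828-44002855, minus strand): tggactacagTTCCCAGAattcactcgt
ZNF284 (chr19:44072082-44072109, minus strand): tgaactacatTTCCCAGAattccccgga
ZNF224 (chr19:44094251-44094278, minus strand): tggactacacTTCCCAGAattccctggg
ZNF226 (chr19:44165036-44165063, minus strand): tggactacgcTTCCCAGAattccacagc
ZNF112 (chr19:44356784-44356811, plus strand): caaactacatTTCCCAGAattcctagaa
Genes named together on a line lie head to head and share 1 match, so they are not independent examples, and genes that arose by tandem duplication share sequence by descent. Most of the lines also read actaca before the word, which the search did not ask for. The lines are only part of the 36 matches, counted per gene. Second matches of ZNF230, ZNF224 and ZNF112 are not printed, and these do not read actaca. The printed lines thus hold actaca more often than the matches as a whole.

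The frequencies of 3 other short motifs, searched on both strands, are given for comparison. CCGGAAG, the core of ETS factor sites, was in 18.6% of windows from 19q13.12 and 31.6% from 19q13.31, against 35.4% of those from zinc finger genes elsewhere and 10.3% of all. GGGCGG, the SP1 core, was in 39.5% and 36.8%, against 63% and 45%. TATAAA was in 2.33% and 5.26%, against 3.99% and 11.5%. A match describes letters in a window and is no evidence of binding.

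The promoters were also rich in CpG, the dinucleotide in which TET1's substrate lies. A window of 19q13.12 held a median of 22 CpGs (range 9 to 37) and one of 19q13.31 a median of 16 (range 2 to 31), against 22 in zinc finger genes elsewhere and 14 in all windows. The windows of the 3 genes that led to the bands are printed 5′ to 3′ on the gene's own strand with each CpG in capitals. ZNF527 holds 27 CpGs, ZNF585B 19 and ZNF224 20. The files hold no methylation values, so whether these CpGs were methylated was not measured here:
ZNF527 (chr19:37370849-37371148, plus strand): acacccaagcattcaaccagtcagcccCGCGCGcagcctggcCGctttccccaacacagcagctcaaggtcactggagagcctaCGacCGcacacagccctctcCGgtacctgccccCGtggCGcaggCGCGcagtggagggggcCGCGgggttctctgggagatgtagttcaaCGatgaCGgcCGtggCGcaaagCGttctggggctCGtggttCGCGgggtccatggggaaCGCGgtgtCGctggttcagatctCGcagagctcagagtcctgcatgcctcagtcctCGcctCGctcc
ZNF585B (chr19:37210487-37210786, minus strand): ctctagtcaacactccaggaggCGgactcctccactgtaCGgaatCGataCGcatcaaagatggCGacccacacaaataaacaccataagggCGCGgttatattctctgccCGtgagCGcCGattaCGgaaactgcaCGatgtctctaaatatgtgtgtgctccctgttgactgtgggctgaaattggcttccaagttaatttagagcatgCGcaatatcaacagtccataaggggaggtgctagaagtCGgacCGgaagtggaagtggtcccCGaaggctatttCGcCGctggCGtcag
ZNF224 (chr19:44094111-44094410, plus strand): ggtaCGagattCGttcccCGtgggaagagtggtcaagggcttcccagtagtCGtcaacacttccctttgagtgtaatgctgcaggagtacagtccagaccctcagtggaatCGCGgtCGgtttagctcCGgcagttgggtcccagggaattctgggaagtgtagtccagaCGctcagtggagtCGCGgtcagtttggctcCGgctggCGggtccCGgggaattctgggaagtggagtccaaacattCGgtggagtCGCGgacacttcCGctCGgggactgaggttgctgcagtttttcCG

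The knockdown comparison asks how the members' RNA stood in cells with shRNA against TET1. Of the 47 measured members 46 had a fitted difference above 0 (TET1 shRNA minus control shRNA), against 49.7% of the 53617 transcript clusters on the array. The count was 27 of 27 in 19q13.12, with a median difference of 0.54 and a range of 0.06 to 2.33. In 19q13.31 it was 19 of 20, with a median of 0.53 and a range of -0.02 to 1.40. None passed the test: limma called 0 of the 37 tested members at an adjusted p of 0.05, as it called 0% of all 28946 tested clusters. Without ZNF527, whose value in this comparison led to its band, 45 of 46 members were above 0. Of the 36 other tested members 10 were higher at an unadjusted p under 0.05 (7 in 19q13.12 and 3 in 19q13.31) and 0 lower, where the shares of all tested clusters were 3.36% and 4.56%. Among other tested zinc finger genes 22 of 140 on chromosome 19 were higher and 1 lower, and on other chromosomes 7 and 10 of 243.

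ZNF527 had 6.58 and 5.86 on the shTET1#1 and shTET1#2 arrays and 6.33 on the vector array, against 3.89 on the control shRNA array. Its fitted knockdown difference was 2.33 on the log2 scale. The control signal lay below that array's median of 5.47, and whether it was above background is not given in the sources used here, so no fold is given. RNA came from all cells of a clone, so fewer cells with the transcript and less of it per cell cannot be told apart. The control array alone was low, and on the 4 TET1 plasmid arrays ZNF527 had 6.19 to 6.60. ZNF345 had 5.97 and 5.49 on the TET1 shRNA arrays and 6.02 on the vector array, against 3.98 on the control shRNA array. Its difference was 1.75 ± 0.24 (SE, adjusted p = 0.402). ZNF829 had 6.30 and 5.67 in the TET1 shRNA clones and 6.01 with the vector, against 4.43 in the control clone, a difference of 1.55 ± 0.28 (adjusted p = 0.46). For both genes, as for ZNF527, every one of the other 7 arrays lay above the control shRNA array.

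ZNF568, whose mouse counterpart silences a placental promoter of Igf2, had 5.83 and 4.72 on the TET1 shRNA arrays and 5.51 on the vector array, against 3.71 on the control shRNA array. Here the clones themselves lay apart, and the difference of 1.57 had an SE of 0.48 (adjusted p = 0.581). ZNF223 was the 1 member of 19q13.31 at least 2-fold above the control clone in both TET1 shRNA clones. It had 6.11 and 5.69 in these clones and 5.18 with the vector, against 4.50 in the control clone, a difference of 1.40 ± 0.23 (adjusted p = 0.424). Besides ZNF527, chosen for its value here, ZNF345, ZNF829, ZNF568 and ZNF223 were the 4 of the 46 other members at least 2-fold higher in both clones, where 0.38% of all clusters were. That share was 3.7% for other zinc finger genes of chromosome 19 and 0.36% for those of other chromosomes. The control signals of these 4 also lay below the array's median, so the size of their differences is uncertain at that end.

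ZNF224, a KRAB repressor known for silencing the aldolase A gene, had 6.89 and 6.31 on the TET1 shRNA arrays and 6.23 on the vector array, against 5.95 on the control shRNA array. Its difference was 0.65 ± 0.27 (adjusted p = 0.666). ZNF585B had 6.44 and 5.95 with the TET1 shRNAs and 6.35 with the vector, against 5.61 with the control shRNA, a difference of 0.58 ± 0.26 (adjusted p = 0.685). The smallest differences among tested members were those of ZNF571 (0.20), ZFP30 (0.16), ZFP14 (0.14) and ZNF146 (0.06). For ZFP14 and ZNF571 the 2 clones fell on opposite sides of the control array, with 6.12 and 5.53 against 5.68 for ZFP14 and 6.09 and 5.39 against 5.53 for ZNF571.

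Several further members had their control shRNA array well below the rest. ZNF790 had 6.77 and 6.26 on the TET1 shRNA arrays and 6.38 on the vector array, against 5.38 on the control shRNA array, a difference of 1.13 ± 0.28 (adjusted p = 0.531). ZNF570 had 6.70 and 5.83 in the TET1 shRNA clones and 6.57 with the vector, against 5.22 in the control clone. For ZNF112 the values were 6.68 and 6.47 with the TET1 shRNAs and 6.72 with the vector, against 5.88 with the control shRNA. For ZNF155 they were 5.61 and 5.57 with the TET1 shRNAs and 5.30 with the vector, against 5.03. ZNF420, also called Apak and known to restrain p53, differed between the clones, with 7.09 for shTET1#1 and 6.13 for shTET1#2, against 6.07 in the control clone. ZNF382, a KRAB repressor, showed the same split, with 6.97 and 6.33 against 6.29. These 6 genes were named after their values were seen.

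Some of the larger differences belonged to runs of neighbouring members and others did not; the runs were picked after their values were seen. In 19q13.12 the first members in order, ZNF565, ZNF146, ZFP14 and ZFP82, had 0.21, 0.06, 0.14 and 0.08. ZNF146 consists of zinc fingers without a KRAB domain. The consecutive members ZNF850, ZNF790, ZNF345, ZNF829 and ZNF568 had 0.81, 1.13, 1.75, 1.55 and 1.57. ZNF527, with the largest difference of all at 2.33, stood apart from that run, between ZNF383 (0.33) and ZNF569 (0.56). ZNF570, with 1.04, followed ZNF569 and was outside the run as well. A second transcript cluster of ZNF383, too low to enter the tests, had -0.20 and is not in the counts. At the far end ZNF571, ZFP30, ZNF607 and ZNF573 had 0.20, 0.16, 0.29 and 0.42. In 19q13.31 the consecutive members ZNF230, ZNF222, ZNF223 and ZNF284 had 1.02, 0.79, 1.40 and 1.25, and the last 3, ZNF285, ZNF229 and ZNF180, had 0.14, -0.02 and 0.24.

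**Figure D1:**
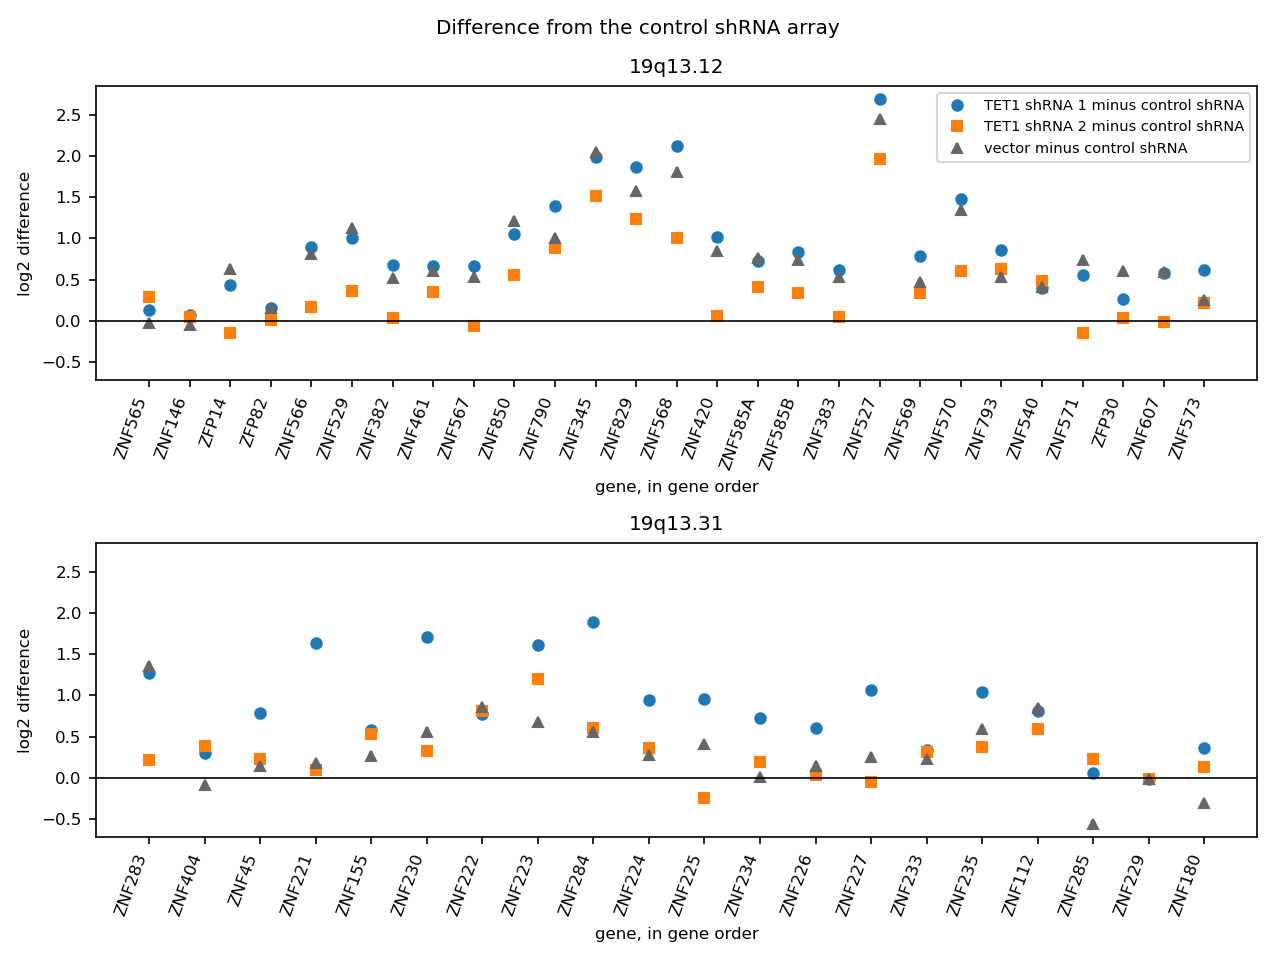
Log2 difference of each member from the control shRNA array (vertical axis), with the members in gene order along the horizontal axis, 19q13.12 above and 19q13.31 below. Circles are the shTET1#1 clone, squares the shTET1#2 clone and triangles the empty vector, each 1 array minus the same control array. Circles lie above 0 for 46 of 47 members and triangles for 41, and in 19q13.12 the triangles lie close to the circles.

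The 2 clones differed in size. In the shTET1#1 clone 46 of 47 members were above the control clone, against 47.9% of all clusters, with a median of 0.79, and 16 were at least 2-fold higher, where 1.2% of all clusters were. Of 189 other zinc finger genes of chromosome 19, 134 were above it and 20 at least 2-fold higher. Of the 278 on other chromosomes these were 158 and 1. In the shTET1#2 clone 40 of 47 members were above the control clone, against 48.3% of all clusters, with a median of 0.31, and 5 were at least 2-fold higher, where 1.16% of all clusters were. Of the other zinc finger genes of chromosome 19, 99 were above it and 8 at least 2-fold higher. On other chromosomes these were 113 and 2. ZNF527, chosen for its knockdown value, is among the members in each of these counts and in that of the lowest arrays given next. Between the clones, shTET1#1 was higher than shTET1#2 for 41 of 47 members, against 48.1% of all clusters. That share was 73% for other zinc finger genes of chromosome 19 and 64.7% for those of other chromosomes. Both clones lay above the control for 40 of 47 members, against 30.6% of all clusters. That share was 42.9% for other zinc finger genes of chromosome 19 and 32% for those of other chromosomes.

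The control shRNA array was the lowest of all 8 for 34 of the 47 members (72.3%), 20 of 27 in 19q13.12 and 14 of 20 in 19q13.31. Over all clusters that share was 13.8%. It was 32.3% for the 189 measured zinc finger genes elsewhere on chromosome 19 and 18% for the 278 on other chromosomes. The shTET1#2 array was the lowest for 5 further members, ZNF567, ZNF571, ZNF607, ZNF225 and ZNF227, against 14.2% of all clusters. The knockdown differences rest on this 1 control array, and a low control clone and high TET1 shRNA clones cannot be told apart within the shRNA arm.

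**Figure D2:**
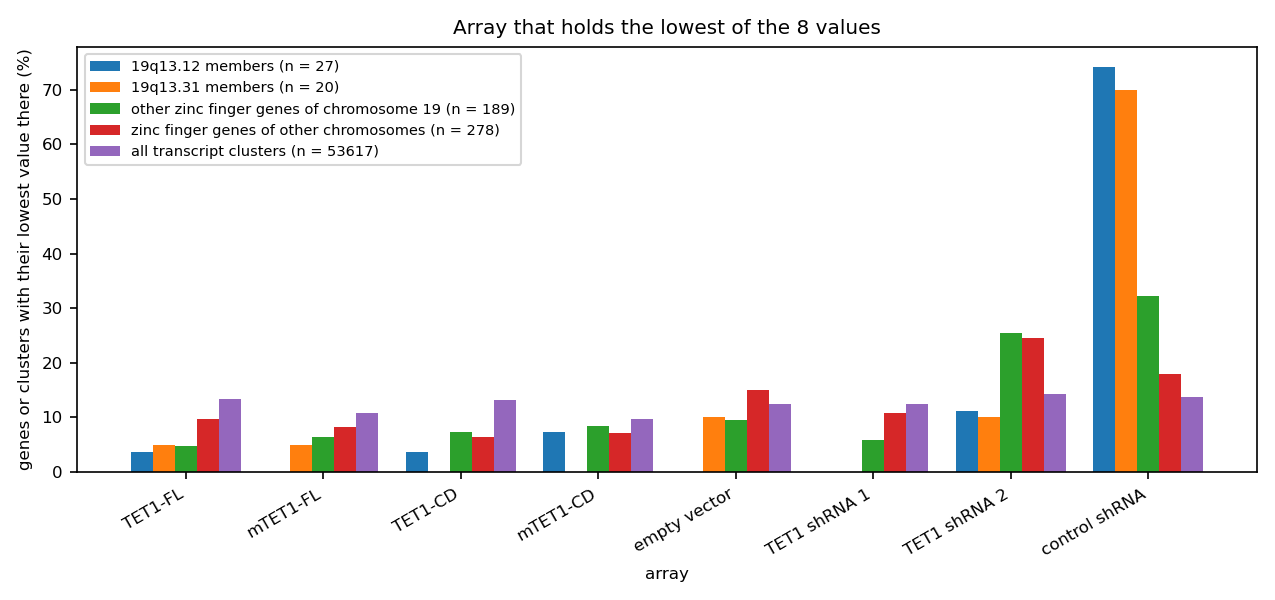
Share of genes or transcript clusters (vertical axis, %) whose lowest value of 8 fell on each array (horizontal axis). Bars stand for the 19q13.12 members, the 19q13.31 members, other zinc finger genes of chromosome 19, those of other chromosomes, and all transcript clusters. The control shRNA array holds the lowest value for 74.1% and 70% of the members of the 2 bands and 13.8% of all clusters.

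The empty vector gives a second array without added TET1. The vector array was above the control shRNA array for 41 of 47 members, with a median difference of 0.55, where 49.7% of all clusters were above it. In 19q13.12 this was 25 of 27 members with a median of 0.63, and in 19q13.31 16 of 20 with a median of 0.26. At least 2-fold higher with the vector were 8 members of 19q13.12 and 1 of 19q13.31, against 1.96% of all clusters. Of 189 other zinc finger genes of chromosome 19, 118 were above the control and 9 at least 2-fold higher. Of the 278 on other chromosomes these were 146 and 2. Each side held 1 array, so this has no test.

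Against the vector array the bands had different medians. In 19q13.12 the shTET1#1 clone differed from the vector by a median of 0.09 and the shTET1#2 clone by -0.49. In 19q13.31 the medians were 0.58 and 0.02. With the vector as the reference, the mean of the TET1 shRNA clones was higher for 7 of 27 members of 19q13.12, with a median of -0.19, so the direction in that band depends on which control array is used. ZNF527 then had -0.12, ZNF345 -0.29, ZNF568 -0.23, ZNF829 -0.02 and ZNF585B -0.16. Cells with the vector were transfected and sorted and the clones were not, and this difference in handling cannot be told apart from the shRNA.

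The level of each member on each array is shown as its deviation from its own mean over 8 arrays. In 19q13.12 the median deviations were 0.40 for TET1-FL, 0.21 for mTET1-FL, 0.14 for TET1-CD, 0.02 for mTET1-CD and 0.03 for the vector. They were 0.13 for shTET1#1, -0.37 for shTET1#2 and -0.65 for the control shRNA. In 19q13.31 they were 0.42, 0.16, 0.19, 0.03 and -0.27 for the same plasmid and vector arrays, and 0.27, -0.19 and -0.59 for the shRNA arrays. The vector array is thus near the mean in 19q13.12 and below it in 19q13.31.

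**Figure D3:**
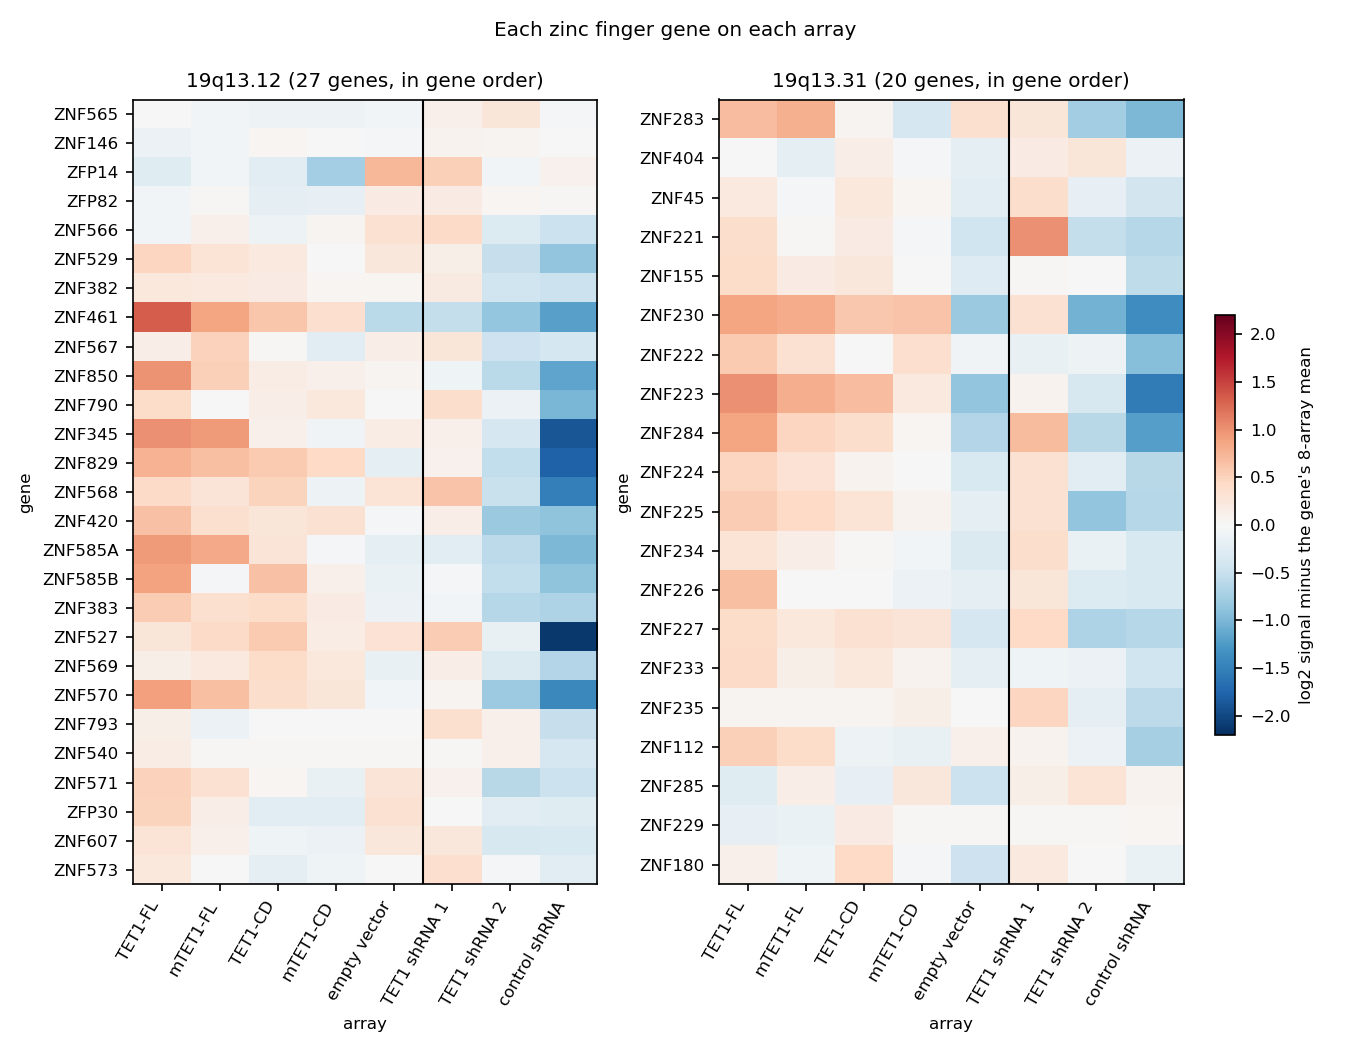
Deviation of each member's log2 signal from its 8-array mean (colour scale, red above and blue below), with members in gene order down each panel and arrays across, the plasmid arm left of the black line and the shRNA arm right of it (TET1 shRNA 1 and 2 are the shTET1#1 and shTET1#2 clones). The control shRNA column is blue for most members, deepest for ZNF527, and the vector column is pale in 19q13.12 and bluer in 19q13.31.

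The catalytic comparison sets wild-type against mutant TET1 plasmids. The differences were small and mostly on 1 side: wild-type minus mutant was above 0 for 40 of 47 members, against 50.5% of all clusters. The count was 23 of 27 in 19q13.12, with a median of 0.13, and 17 of 20 in 19q13.31, with a median of 0.17. Other zinc finger genes had smaller medians, 0.06 over the 189 elsewhere on chromosome 19 (119 above 0) and 0.05 over the 278 on other chromosomes (183 above 0). limma called 0 members, and 0% of all tested clusters. Of the 36 tested members other than ZNF585B, whose value here led to its band, 0 were higher at an unadjusted p under 0.05, where 1.04% of tested clusters were, and 0 lower, where 0.915% were.

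Wild-type was above mutant in both constructs for 28 of 47 members, 14 in each band, against 23.7% of all clusters. That share was 36.5% for other zinc finger genes of chromosome 19 and 36% for those of other chromosomes. Wild-type was below mutant in both for 4, ZFP82, ZNF566, ZNF235 and ZNF285, against 22.7% of all clusters. In 19q13.12 the median was 0.14 between the FL arrays and 0.13 between the CD arrays, and in 19q13.31 it was 0.19 and 0.16.

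ZNF585B had 7.38 with TET1-FL against 6.47 with mTET1-FL, and 7.14 with TET1-CD against 6.61 with mTET1-CD. Its difference of 0.71, or 1.64-fold, was the largest among the members and, as a value that led to the choice of this band, is given without a test. Both wild-type arrays lay above all 6 of the other arrays for this gene. Its close copy ZNF585A, which lies next to it, had 8.65 against 8.56 and 8.00 against 7.70, a difference of 0.20 ± 0.16 (adjusted p = 1). How far probes tell such copies apart was not tested.

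Next in size were ZNF226 (0.40), ZNF568 (0.37) and ZNF284 (0.37). ZNF226 had 6.47 with TET1-FL against 5.79 with mTET1-FL, and 5.81 with TET1-CD against 5.67 with mTET1-CD. ZNF284 had 6.79 against 6.39 and 6.30 against 5.96 in the same order, so its constructs were alike in size. The lowest tested values were those of ZNF146 (-0.02), ZNF235 (-0.03), ZNF567 (-0.04) and ZNF566 (-0.17), all with an adjusted p of 1. For ZNF527 the difference was 0.13 and for ZNF224 it was 0.13.

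**Figure D4:**
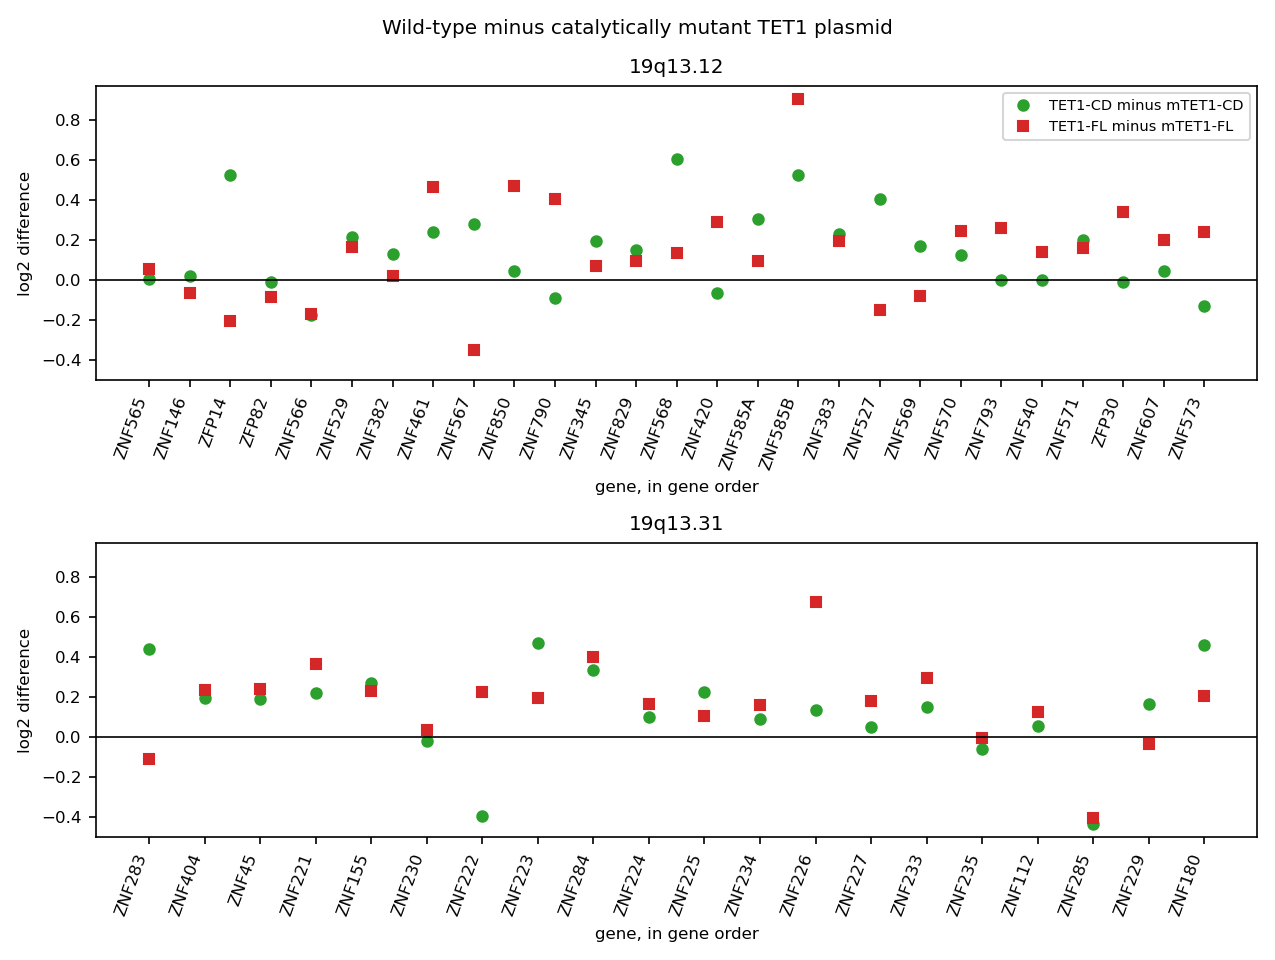
Wild-type minus mutant log2 difference for each member (vertical axis) in gene order (horizontal axis), 19q13.12 above and 19q13.31 below. Circles are the CD pair and squares the FL pair, 1 array minus 1 array. Both symbols lie above 0 for 14 of 27 members in 19q13.12 and 14 of 20 in 19q13.31, and ZNF585B has the highest square, at 0.90.

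In the comparison of TET1 plasmids with the vector the bands again had different medians. In 19q13.31 the mean of the 4 plasmid arrays was above the vector for 18 of 20 members, with a median of 0.45. In 19q13.12 it was above it for 15 of 27, with a median of 0.02. Over all clusters 45.6% were above 0, and of other zinc finger genes 59.3% on chromosome 19 and 56.8% on other chromosomes. All 4 plasmid arrays lay above the vector for 16 of 20 members in 19q13.31 and 9 of 27 in 19q13.12, against 22.6% of all clusters. That share was 36% for other zinc finger genes of chromosome 19 and 37.1% for those of other chromosomes. All 4 plasmid arrays lay below the vector for ZFP14, ZFP82 and ZNF566, all in 19q13.12, against 28% of all clusters. Members are not replicates, and the difference between the bands was not tested.

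ZNF230 had 6.52 with TET1-FL, 6.48 with mTET1-FL, 6.26 with TET1-CD and 6.28 with mTET1-CD, against 4.84 with the vector. The difference was 1.54 ± 0.51 (SE, adjusted p = 0.285). That SE came mostly from the gap between the TET1 shRNA clones, which are not part of this comparison. The 4 plasmid arrays lay far closer to each other than to the vector. ZNF223 had 7.04, 6.85, 6.73 and 6.26 on those arrays, against 5.18 with the vector, a difference of 1.54 ± 0.21 (adjusted p = 0.163). ZNF284 had 6.79, 6.39, 6.30 and 5.96, against 5.27, a difference of 1.09 ± 0.48 (adjusted p = 0.376). These 3 genes lie near each other in 19q13.31, with ZNF222 between ZNF230 and ZNF223, and mutant as well as wild-type plasmids stood above the vector for each.

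The transcript cluster that represents ZNF224 had 7.04, 6.87, 6.64 and 6.54 with TET1-FL, mTET1-FL, TET1-CD and mTET1-CD, against 6.23 with the vector, a difference of 0.55 ± 0.25 (adjusted p = 0.383). The second cluster of ZNF224, with a lower mean signal, had 7.51, 7.08, 6.73 and 6.22 against 4.93. Its difference of 1.96 was among the values that led to this band and has no test here. The second cluster also had 0.89 in the knockdown, 0.47 in wild-type minus mutant and 0.82 in FL minus CD. The clusters are different groups of probes, and the sizes of their differences are not set against each other.

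In 19q13.12 the member furthest above the vector was ZNF461, whose rat counterpart was described as induced by gonadotropin. It had 7.43 with TET1-FL, 6.97 with mTET1-FL, 6.72 with TET1-CD and 6.48 with mTET1-CD, against 5.51 with the vector. The difference was 1.39 ± 0.18 (adjusted p = 0.163). ZFP14 went the other way, with 5.33, 5.53, 5.36 and 4.84 against 6.31, a difference of -1.05 ± 0.31 (adjusted p = 0.254). The other low values were ZNF566 (-0.33), ZFP30 (-0.30) and ZNF607 (-0.21). ZNF527 stood at 0.04 and ZNF585B at 0.55.

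limma called 0 members here, and 0% of all tested clusters. At an unadjusted p under 0.05, 7 members were higher, 3 in 19q13.12 and 4 in 19q13.31, where 8.78% of tested clusters were. ZFP14 was the 1 lower member, where 6.26% were. Among other tested zinc finger genes 24 of 140 on chromosome 19 were higher and 2 lower, and on other chromosomes 37 and 12 of 243. All 4 plasmids are set against the same vector array, so a value of that array enters every one of these differences. The median for 19q13.31 was 0.64 for TET1-FL, 0.44 for mTET1-FL, 0.43 for TET1-CD and 0.30 for mTET1-CD. The matching medians for 19q13.12 were 0.22, 0.07, 0.08 and -0.01.

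**Figure D5:**
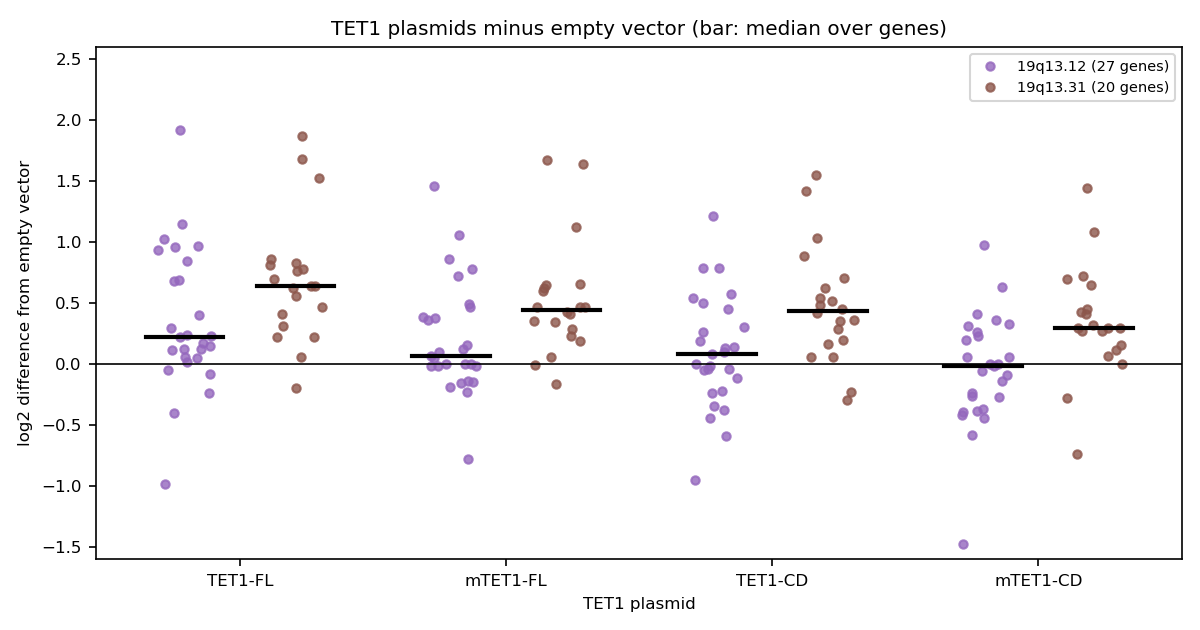
Log2 difference of each member from the empty vector (vertical axis) for the 4 TET1 plasmids (horizontal axis). Each point is a member, 19q13.12 left and 19q13.31 right within each plasmid, and the bars are medians. The 19q13.31 medians run between 0.30 and 0.64 and each lies above the 19q13.12 median of the same plasmid.

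The construct comparison sets FL against CD plasmids. FL minus CD was above 0 for 37 of 47 members, 23 of 27 in 19q13.12 and 14 of 20 in 19q13.31, against 52.4% of all clusters. Among other zinc finger genes it was above 0 for 127 of 189 on chromosome 19 and 146 of 278 on other chromosomes. The medians were 0.20 in each band. Both FL arrays lay above both CD arrays for 24 members, 16 in 19q13.12 and 8 in 19q13.31, against 23.5% of all clusters. That share was 37% for other zinc finger genes of chromosome 19 and 24.8% for those of other chromosomes.

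ZNF345 had 6.87 and 6.80 with the FL plasmids, against 5.98 and 5.78 with the CD plasmids, a difference of 0.95 ± 0.19 (SE, adjusted p = 0.169). ZNF283 had 6.65 and 6.76, against 6.05 and 5.60, a difference of 0.88 ± 0.38 (adjusted p = 0.405). ZNF585A had 8.65 and 8.56, against 8.00 and 7.70, and ZNF850 9.40 and 8.93, against 8.57 and 8.52. Their differences were 0.75 ± 0.16 (adjusted p = 0.176) and 0.62 ± 0.22 (adjusted p = 0.33). The FL and CD arrays did not overlap for any of these 4 genes.

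The lowest tested values were those of ZNF180 (-0.20), ZNF569 (-0.15), ZNF146 (-0.11) and ZNF45 (-0.05). ZNF224 had 0.36, ZNF585B 0.05 and ZNF527 -0.04. limma called 0 members, and 0% of all tested clusters. At an unadjusted p under 0.05, 6 were higher, 5 in 19q13.12 and 1 in 19q13.31, where 8.86% of tested clusters were, and 0 lower, where 4.87% were. Among other tested zinc finger genes 10 of 140 on chromosome 19 were higher and 2 lower, and on other chromosomes 7 and 6 of 243. TET1 signal was itself 1.61 higher with FL than with CD plasmids (adjusted p = 0.129). How far the TET1 probes cover each construct was not tested, so this gap in signal need not be a gap in TET1 RNA. The part of TET1 level in the members' FL minus CD values was not tested either.

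Setting the 5 plasmid and vector arrays against the 3 shRNA arrays was the 1 comparison in which members passed the test. The conditions within an arm have their own terms in the fit, so the SE leaves out how far they differ. A call here thus concerns the mean of the conditions chosen, and the arrays of the arms can still overlap. Called higher in the plasmid and vector arrays were 6 of the 37 tested members, 5 in 19q13.12 and 1 in 19q13.31, and none lower. Over all tested clusters limma called 5.41%, and 3.65% as higher. Among other tested zinc finger genes it called 7 of 140 on chromosome 19 and 11 of 243 on other chromosomes. The fitted difference was above 0 for 38 of 47 members, against 46.3% of all clusters, with medians of 0.43 in 19q13.12 and 0.28 in 19q13.31. It was above 0 for 135 of 189 other zinc finger genes on chromosome 19 and 178 of 278 on other chromosomes.

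ZNF461 rose by 1.38 ± 0.12 (SE, adjusted p = 0.0229). It had 5.51 with the vector and 6.48 to 7.43 with the TET1 plasmids, against 5.58, 5.26 and 4.91 in the shTET1#1, shTET1#2 and control clones. The vector array lay below the shTET1#1 array, so the arms overlapped for this gene. ZNF829 rose by 1.19 ± 0.17 (adjusted p = 0.0373) and ZNF345 by 1.14 ± 0.14 (adjusted p = 0.0306). For both the shTET1#1 array lay within the range of the plasmid arm. Within the shRNA arm ZNF461 and ZNF345 lay above the array median on the shTET1#1 array alone. They thus entered the tests only through the plasmid arm, where they are high, and their calls carry that limit.

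ZNF850 rose by 0.99 ± 0.16 (adjusted p = 0.0437), with 8.46 to 9.40 in the plasmid arm, against 8.31, 7.81 and 7.25 in the clones. ZNF585A rose by 0.96 ± 0.12 (adjusted p = 0.0306), with 7.50 to 8.65, against 7.47, 7.15 and 6.74. For these genes and for ZNF222, which was not tested, all 5 arrays of the plasmid arm lay above all 3 shRNA arrays, that is for 3 of 47 members, against 5.16% of all clusters. ZNF223 rose by 0.98 ± 0.14 (adjusted p = 0.037), although its vector array, at 5.18, lay below both TET1 shRNA arrays. ZNF570 came next with 1.15 ± 0.22 (adjusted p = 0.0558).

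ZNF527 differed by 0.93 and ZNF585B by 0.79. Both are given without a test, because the arrays whose values led to the bands enter them. ZNF224 differed by 0.28 ± 0.16 (adjusted p = 0.339). The second cluster of ZNF224 differed by 1.23. It does not represent the gene in the counts, and this value has no test here because its plasmid signals led to the band. The lowest tested differences were ZFP14 (-0.30), ZNF565 (-0.18), ZNF146 (-0.09) and ZNF180 (-0.02). Without the control shRNA array ZNF461 alone of the members was called, with an adjusted p of 0.0421, and the 19q13.12 median was 0.21. Without a filter on low signal 0 were called, the lowest adjusted p being 0.0519. The arms differ in lentivirus against plasmid, in clonal growth, in sorting and in TET1 level, which cannot be told apart.

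By median, genes beside the bands were nearer 0 than the members, except in plasmids minus vector for 19q13.12. Some of them lay too low to enter the tests, which limits what their differences show. These were COX7A1, LOC644554, WDR87BP, WDR87 and CATSPERG beside 19q13.12, and PRG1, TEX101 and CEACAM16 beside 19q13.31. Of the 20 nearest measured genes that are no zinc finger genes around 19q13.12, 10 on each side, 12 were higher in the TET1 shRNA clones, with a median of 0.05, and 7 had their lowest value on the control shRNA array. Around 19q13.31 these figures were 10 of 20, -0.01 and 6. In wild-type minus mutant the flanking medians were -0.03 and -0.04, with 8 and 6 of 20 above 0. In plasmids minus vector the 19q13.12 members (0.02) and their flanks (-0.03) were about as near 0, while the 19q13.31 members had 0.45 and their flanks -0.09. In FL minus CD the flanking medians were 0.04 and -0.01. Between the arms 16 of 20 genes beside 19q13.31 were above 0, the same count as among its members, with a median of 0.09 for the flanks, and beside 19q13.12 it was 11 of 20 with a median of 0.04.

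The nearest neighbours were COX7A1, a subunit of cytochrome c oxidase, and LOC644554 at the ends of 19q13.12, with knockdown differences of -0.02 and 0. Both lay too low to enter the tests, with 4.71 and 3.86 on the control shRNA array, so these differences say little. For LYPD5 and CEACAM20, at the ends of 19q13.31, they were 0.22 and 0.43. Inside 19q13.12 lie 5 measured transcripts that are no members. Their median knockdown difference was -0.07, and 2 of the 5 were above 0: ZNF790-AS1, at 0.36, and the long non-coding RNA LINC00665 between ZNF146 and ZFP14. ACOT4P1 had -0.07, ZNF566-AS1 -0.21 and LOC284412 -0.21. Of these transcripts ZNF790-AS1 and LOC284412 also lay too low to enter the tests. LINC00665 is described because its value stood out. It had 7.49 and 7.61 on the TET1 shRNA arrays and 7.21 on the vector array, against 4.71 on the control shRNA array. It had 7.05 to 7.40 on the TET1 plasmid arrays. Its difference of 2.84 exceeded that of every member, and the zinc finger genes on each side of it, ZNF146 and ZFP14, had 0.06 and 0.14.

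Zinc finger genes elsewhere on chromosome 19 showed a smaller shift in the knockdown, with a median of 0.10 and 119 of 189 above 0. Those of other chromosomes had a median of -0.01, with 129 of 278 above 0. In plasmids minus vector the medians were 0.06 and 0.05.

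Members with and without TTCCCAGA in a promoter window were set side by side. The 27 measured members with it had a median knockdown difference of 0.54, 26 above 0, and the 14 with a window but no match had 0.40, all 14 above 0. In 19q13.12 alone the medians were 0.54 for 13 members and 0.50 for 12. In 19q13.31 only 2 measured members with a window had no match. In wild-type minus mutant the medians were 0.12 with the word and 0.13 without it, and in plasmids minus vector 0.39 and 0.03. These differences were not tested.

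The machinery through which KRAB proteins act was spread around 0. Of 34 listed genes 27 were measured, and 14 of these were higher in the TET1 shRNA clones, with a median of 0.02 and 0 called. TRIM28, the co-repressor, had 10.86 and 10.54 in the TET1 shRNA clones, against 10.87 in the control clone, a difference of -0.17 ± 0.19 (adjusted p = 0.885). SETDB1 had no cluster under its symbol. The largest knockdown differences in the list were those of ATRX, a chromatin remodeller, at -0.67 (adjusted p = 0.779), and ZNF445, a zinc finger protein that maintains imprints, at 0.53 (adjusted p = 0.614). ATRX was low in the shTET1#1 clone only, with 7.27 and 8.30 in the clones, against 8.46 in the control.

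In plasmids minus vector the largest were ZNF274, at 0.72 (adjusted p = 0.246), and the histone chaperone DAXX, at 0.61 (adjusted p = 0.236), with 0 of 27 called. In wild-type minus mutant the largest were MPHOSPH8, of the HUSH silencing complex, at 0.12, and ATRX, at 0.12, both with an adjusted p of 1. In FL minus CD they were the histone methyltransferase gene SUV39H2, at -0.54 (adjusted p = 0.183), and ATRX, at -0.39 (adjusted p = 0.718). Between the arms ZNF274 was higher by 0.68 (adjusted p = 0.0587), and ATF7IP, the partner of SETDB1, rose by 0.49 (adjusted p = 0.0489), the 1 call among the 27. In the HEK293 list 3 of 6 measured genes were higher in the TET1 shRNA clones, with a median of -0.02 and 0 called. The ends of that list, named after their values were seen, went opposite ways. EYA1, a coactivator of kidney development, had 8.19 and 7.66 in the TET1 shRNA clones and 8.34 with the vector, against 6.31 in the control clone. VIM, the intermediate filament vimentin, had 8.04 and 8.01 in the TET1 shRNA clones and 8.59 with the vector, against 8.60 in the control clone. Their differences were 1.61 (adjusted p = 0.424) and -0.57 (adjusted p = 0.542).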

How the data were processed

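RNA of 8 HEK293T cultures or clones was hybridised to Affymetrix arrays. The deposited values are log2 signals per transcript cluster. RMA and Affymetrix Expression Console 1.3.1 are listed in the submitters' processing notes. Which step each did, and on which genome build, is not given in the sources used here. Of 53981 rows 364 held no value. Names came from the platform annotation, which gave 16098 clusters 1 symbol, 0 several and left 37519 unnamed; RefSeq served for names, gene order and promoters.

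Clusters were kept where at least 2 of 8 arrays lay above their own median, which left 28946. All 8 arrays entered 1 fit in limma 3.58.1 (lmFit, eBayes; R 4.3.3), whose terms were control shRNA, TET1 shRNA, the empty vector, the wild-type and the mutant plasmids, and FL against CD. It left 2 residual degrees of freedom: how far the TET1 shRNA clones differ, and how far wild-type minus mutant differs between FL and CD. The fitted prior was an SD of 0.154 with 2.89 degrees of freedom. Benjamini-Hochberg adjustment ran over all kept clusters, with a threshold of 0.05. The script was tested on simulated data. Vector minus control shRNA has 1 array a side and no test. Counts above 0 and medians are over all 47 measured members. The number of arrays limits the precision.

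The members and gene lists were chosen with earlier results of these data known, and the promoter word on the members' own windows. Named were ZNF527, ZNF224 and ZNF585B, the 4 highest and 4 lowest tested members per comparison, those past the threshold, the nearest neighbours, and from the KRAB list TRIM28, SETDB1 and the 2 largest changes per comparison. The rule also named the members of highest and lowest mean, which are left out because levels of different probes are not comparable. Alternatives were another normalization, no filter, other transcript clusters, other arrays and each TET1 shRNA clone left out.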

Additional observations from a re-analysis of the deposited data

Results flagged for a closer look

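For 3 members that the text names, wild-type minus mutant TET1 had opposite signs in the 2 constructs, and this difference was not tested. ZNF567 had -0.35 between the FL arrays and 0.28 between the CD arrays, 0.63 apart. ZNF527 had -0.15 between the FL arrays and 0.41 between the CD arrays, 0.55 apart. ZNF146 had -0.067 between the FL arrays and 0.020 between the CD arrays, 0.087 apart. Each value is 1 array minus 1 array.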

How the results depend on the processing

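Wild-type and mutant plasmids are matched by construct, which the fit holds as its FL against CD term. By replicate number no paired analysis was possible because each group but TET1 shRNA holds 1 array. Of the alternative values for counts and band medians, 133 stayed close to the value reported and 14 moved. With the vector as the reference for the TET1 shRNA clones, the 19q13.12 median was -0.19, and the signs reversed for ZNF527 (-0.12), ZNF345 (-0.29), ZNF568 (-0.23), ZNF829 (-0.024), ZNF571 (-0.54), ZFP30 (-0.45), ZFP14 (-0.49) and ZNF585B (-0.16). With either TET1 shRNA clone left out, ZNF571 ran between -0.15 and 0.55 and ZFP14 between -0.15 and 0.44 in the knockdown, the negative values without replicate 1. In wild-type minus mutant the 19q13.12 median was 0.15 after cyclic loess, 0.14 with arrays centred on their medians and 0.14 on FL arrays only, and the 19q13.31 median was 0.19 with clusters averaged per symbol. ZNF146 was 0.020 and ZNF567 0.28 on CD arrays only, and ZNF527 -0.15 on FL arrays only. In plasmids minus vector the 19q13.12 median was 0.15 on FL arrays only. In FL minus CD, mutant arrays only gave a 19q13.31 median of 0.088, ZNF527 0.24 and ZNF585B -0.14. Between the plasmid and shRNA arms, the count of called members was 0 without a filter, 11 with named genes only, and 14 to 23 with either TET1 shRNA clone left out. Left-out arrays moved other values there: without TET1 shRNA replicate 1 the 19q13.12 median was 0.72 and ZNF180 0.073. Alternatives chosen after seeing the data gave 1 called member and a 19q13.12 median of 0.21 without the control shRNA array, where ZNF180 had -0.11, and 0.086 for ZNF180 without the vector array. For single genes, 17 values reversed, 13 newly passed the threshold, 11 no longer passed it and 485 did neither. Apart from the construction of each alternative, the cause was not tested. Another scaling moved the median of all clusters by less than 0.1.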
